A study of Homo sapiens with 10 samples.

Results

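The genes described here are transcription factors of the liver other than its ligand-regulated nuclear receptors, chosen by name. Of 8 named factors, HNF4A, HHEX, CEBPA, CEBPB and TBX3 were matched to 5 of the 12125 genes of the expression table, and PROX1, ONECUT1 and ONECUT2 were not analysed here. The values come from bulk RNA-seq of the H1 human embryonic stem cell line, carried through a serum-free hepatic differentiation with 1 library for each of 10 days. Day 0 was untreated. Days 1, 2 and 3 had Activin A at 100 ng per ml, days 5 and 7 had FGF4 (30 ng per ml) plus BMP2 (20 ng per ml), days 9 and 11 had HGF and KGF at 20 ng per ml each, and day 21 had Oncostatin M (OSM) at 20 ng per ml. The sample label puts day 13 under OSM, whereas the step lengths in the culture protocol (3, 4 and 6 days) make day 13 the last day of HGF and KGF, and it was taken as the end of that step. All libraries share 1 cell line and nothing states that they came from separate cultures, so the spread between replicates is unknown and no p-value is given.

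HNF4A is a nuclear receptor by structure that binds DNA as a homodimer and keeps up much of the hepatocyte programme, from apolipoproteins to clotting factors. HHEX is a homeodomain protein of the anterior endoderm and the early liver bud, and TBX3 is a T-box repressor that hepatoblasts need to expand and to keep a hepatic rather than a biliary course. CEBPA and CEBPB are leucine zipper proteins of the C/EBP family. The first drives metabolic genes and slows growth in hepatocytes, and the second acts in the acute phase response and in regeneration, where much of its control is on the protein and not on its mRNA.

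Start-site sequence is shown for HNF4A and HHEX, because HHEX was the first factor to peak and because HNF4A, whose target genes are read further on, has a pair of promoters, one used mainly in the adult liver and the other in the fetal liver and pancreas. The table gives 1 value per gene, so the transcripts of these start sites cannot be told apart in the values below. The sequences are from RefSeq (GRCh38.p14), run 5′ to 3′ on the strand of the gene and end at the base before the start site, except that 4 bases of annotated exon were left off the HHEX window. RefSeq entries were matched for 4 of the 5 genes. Capitals mark matches to the ONECUT core ATTGAT, the GATA core GATAA, the TATA box TATAAA, the CCAAT box CCAAT and the C/EBP site TTGCNNAA, all searched on both strands.
HNF4A, start site 1, chr20:44355449-44355698, plus strand: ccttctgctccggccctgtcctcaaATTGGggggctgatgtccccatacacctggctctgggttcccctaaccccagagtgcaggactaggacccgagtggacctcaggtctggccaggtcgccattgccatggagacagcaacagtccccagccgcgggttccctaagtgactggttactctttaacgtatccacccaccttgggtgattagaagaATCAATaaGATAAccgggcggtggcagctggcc
HNF4A, start site 2, chr20:44400989-44401238, plus strand: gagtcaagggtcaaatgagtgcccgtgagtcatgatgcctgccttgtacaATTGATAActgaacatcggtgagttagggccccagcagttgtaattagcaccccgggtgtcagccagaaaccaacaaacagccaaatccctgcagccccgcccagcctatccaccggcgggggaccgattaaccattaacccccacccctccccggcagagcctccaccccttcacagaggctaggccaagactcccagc
HHEX, chr10:92689705-92689950, plus strand: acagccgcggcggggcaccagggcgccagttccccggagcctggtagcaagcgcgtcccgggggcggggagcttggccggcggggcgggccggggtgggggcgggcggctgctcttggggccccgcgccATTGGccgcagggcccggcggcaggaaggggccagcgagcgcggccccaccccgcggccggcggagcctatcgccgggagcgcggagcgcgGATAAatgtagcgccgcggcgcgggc
In the window of HNF4A start site 1, the ONECUT core lay 33 to 28 bases upstream on the opposite strand, beside a GATA core at 25 to 21 bases and a CCAAT box at 225 to 221 bases. In the window of start site 2, an ONECUT core at 200 to 195 bases upstream shared letters with a GATA core at 197 to 193 bases. The HHEX window held a GATA core at 30 to 26 bases and a CCAAT box at 121 to 117 bases. Of 35116 RefSeq promoter windows of the same reach, 5.58% held the ONECUT core, 20.4% the GATA core, 10.7% the TATA box, 32.0% the CCAAT box and 9.05% the C/EBP site. These matches describe letters only, and no binding was measured.

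The deposited values are whole numbers that the authors had normalized for GC content, and they are scores, not read counts. The libraries had nearly the same distribution of values, with medians of 81 or 82 and totals within 1.36% of each other, so depth cannot be read from them. The largest value was 18734 in every library, where 10 genes stood each time, and 1086 values of 2000 or more took only 63 distinct numbers. A gene at that largest value cannot go higher. The 5 factors, at 1044 or less, lay below 2000, but numbers in their range also recurred between genes. For example, 768 was the value of TBX3 on day 7 and of FASN on day 21. Values are compared within a gene and not between genes, because they are not per length. The labelled stages were checked on their markers. POU5F1, which marks pluripotent cells, went from 4861 at day 0 to 5 at day 21, AFP reached 18734 at day 7, and ALB went from 168 at day 13 to 4866 at day 21.

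HNF4A was listed at 0 on day 0 and at 4, 18 and 28 on days 1, 2 and 3. Its value was then 299 on day 5, 1044 on day 7, 1021 on day 9, 918 on day 11, 838 on day 13 and 470 on day 21. The gene was thus low through the Activin A step, highest from day 7 to day 13 and lower again in the OSM library. Its interval in the table is chr20:42984340-43058311 on the plus strand, in a build the table does not name, under the identifier ENSG00000101076.

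HHEX had 6 on day 0, 18 on day 1, 106 on day 2 and 139 on day 3. After the change of medium it had 28 on day 5 and 79 on day 7, followed by 44, 30, 24 and 10 on days 9, 11, 13 and 21. It was the earliest of the factors to peak, and day 7 stood above both day 5 and day 9. The gene (ENSG00000152804) has the interval chr10:94447945-94455403 on the plus strand.

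TBX3 was at 1 on day 0, listed at 0 on day 1, and at 52 and 42 on days 2 and 3. It had 470 on day 5, 768 on day 7, 353 on day 9, 262 on day 11, 91 on day 13 and 63 on day 21. The high values of TBX3 were those of the FGF4 and BMP2 step, and by day 21 the value was close to that of day 2. The gene (ENSG00000135111) lies at chr12:115108059-115121969 on the minus strand in the table.

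CEBPA was at 5 on day 0, listed at 0 on days 1 and 2, and at 3 and 10 on days 3 and 5. It had 67 on day 7, 130 on day 9, 219 on day 11, 266 on day 13 and 160 on day 21. CEBPA was the last of the HNF4A, TBX3 and CEBPA group to reach 50, at day 7, and was highest at day 13. Its interval (ENSG00000245848) is chr19:33790840-33793470 on the minus strand.

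CEBPB had 26, 48, 36 and 28 on days 0, 1, 2 and 3, then 16 on day 5, 30 on day 7, 21 on day 9, 24 on day 11, 37 on day 13 and 56 on day 21. The lowest library was day 5 and the highest day 21, the only one at 50 or more. The gene (ENSG00000172216) has the interval chr20:48807376-48809212 on the plus strand.

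The steps of the protocol were then compared across their first and last libraries. A gene was counted as having risen or fallen at a difference of at least 2 in log2(value + 1), that is 4-fold, with a larger value of at least 50. From day 0 to day 3, the step in which Activin A makes definitive endoderm, HHEX rose by 4.32 on the log2 scale, from 6 to 139. It was 1 of the 5 factors to rise, where 3.94% of the 8934 genes tested rose. The other 4 factors were under 50 in both libraries and could not be counted, although HNF4A went from a listed 0 to 28 and TBX3 from 1 to 42. Within this step, HHEX (a difference of 2.49) and TBX3 (from a listed 0 to 52) both rose between day 1 and day 2, where 1.12% of 8588 genes rose.

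From day 3 to day 7, under FGF4 and BMP2, 3 of the 5 factors rose. HNF4A rose 37.3-fold, a log2 difference of 5.17, CEBPA rose by 4.09 from 3 to 67, and TBX3 rose 18.3-fold, by 4.16. Of 9100 genes tested, 5.63% rose. HHEX had a difference of -0.81, short of 4-fold, and CEBPB was at 28 and 30. In bulk RNA, more cells of a type and more RNA per cell cannot be told apart, for these or any other values here.

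The first and second parts of this step differed between the factors. Between day 3 and day 5, HNF4A rose by 3.37 and TBX3 by 3.45, and 2.85% of 8767 genes rose. HHEX fell by 2.27 over the same days, from 139 to 28, where 2.24% of genes fell. From day 5 to day 7, CEBPA was the 1 factor of 5 that rose, by 2.63, against 2.25% of 8755 genes, while HNF4A differed by 1.80, HHEX by 1.46 and TBX3 by 0.71.

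From day 7 to day 13, under HGF and KGF, TBX3 fell from 768 to 91, a log2 difference of -3.06 or 8.44-fold. It was 1 of the 5 factors to fall, where 2.46% of 8892 genes fell. CEBPA had a difference of 1.97, just short of 4-fold (3.08% of genes rose), HHEX of -1.68 and HNF4A of -0.32. With day 11 as the end of the step, TBX3 stood at 262, a difference of -1.55, and 0 of the 5 factors passed 4-fold, where 2.74% of 8699 genes did in either direction. With the libraries scaled to a common median ratio, CEBPA had a difference of 2.03 and passed it.

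From day 13 to day 21, under OSM, 0 of the 5 factors passed 4-fold in either direction, where 3.89% of 8786 genes did. HNF4A had a difference of -0.83, CEBPA of -0.73, TBX3 of -0.52 and CEBPB of 0.58, and HHEX was at 24 and 10. With day 11 in place of day 13, TBX3 fell, by 2.04 on the log2 scale, where 2.36% of 8862 genes fell. Over the whole course from day 0 to day 21, 3 of 5 factors rose, among 11.9% of 9698 genes. CEBPA rose by 4.75 and TBX3 by 5.00, and HNF4A from a listed 0 to 470. CEBPB differed by 1.08 and HHEX was at 6 and 10.

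**Figure D1:**
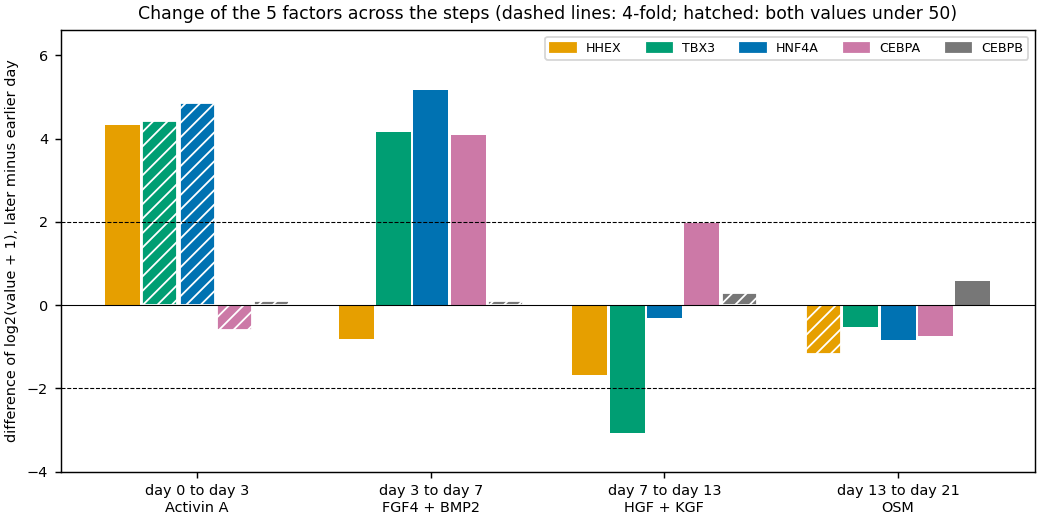
Difference of log2(value + 1), later minus earlier day (vertical axis), of each factor in the 4 steps of the protocol (horizontal axis), with 1 library on each side and no error bar. Dashed lines mark 4-fold and hatched bars have both values under 50; the HNF4A bar of the first step starts from a listed 0 and its height depends on the pseudocount of 1. HHEX rises in the first step, TBX3, HNF4A and CEBPA in the second, and TBX3 falls in the third.

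Since no replicate exists, neighbours in the order of the levels of a gene were set against the pair of days 9 and 11, which share a medium. The 95th percentile of the absolute log2 difference between these days, over all genes of a like mean value, was 2.70 for means under 10, 1.40 for 10 to 30, 0.784 for 30 to 100, 0.592 for 100 to 300, 0.537 for 300 to 1000 and 0.683 above. This measure also holds any true change between days 9 and 11, and it cannot judge that pair itself. Only 0.213% of genes passed 4-fold between these days. Of 45 neighbouring pairs in the orders of the 5 factors, 10 were further apart than this measure.

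For HNF4A the order ran from day 7 through days 9, 11 and 13 with no neighbours apart, and the values of days 7 and 13 (a difference of -0.32) were also within the measure. Day 21 lay below day 13 by 0.83 and above day 5 by 0.65, both beyond it. For TBX3, day 7 was above day 5 by 0.71 and day 11 above day 13 by 1.52, both apart, while day 21 could not be set apart from days 13, 2 or 3. For CEBPA, day 9 was above day 7 by 0.95 and day 7 above day 5 by 2.63. The neighbours among days 9, 21, 11 and 13 were not apart. However, day 13 was above day 9 by 1.03, more than the measure, and days 13 and 21 also differed by more than it. Day 11 was above day 9 by 0.75, a difference that the measure, taken from this same pair of days, cannot judge.

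For HHEX, days 3, 2 and 7 formed the top of the order without neighbours apart, although days 3 and 7 themselves differed by more than the measure, and day 7 was above day 9 by 0.83. For CEBPB, 0 of 9 neighbouring pairs were apart. Over all 45 pairs of days for each gene, those further apart than the measure numbered 38 for TBX3, 37 for HNF4A, 34 for CEBPA, 31 for HHEX and 10 for CEBPB. The 45 pairs include days 9 and 11 themselves, counted as apart for CEBPA only. Of the 10 CEBPB pairs, those with the largest differences set day 5 against day 21 (1.75) and day 1 against day 5 (1.53).

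The pairs of factors were also compared over the 10 libraries by the correlation of log2(value + 1). These libraries are successive days of one cell line, so a coefficient describes a shared course and carries no p-value. HNF4A and TBX3 had r = 0.88, HNF4A and CEBPA 0.83, and CEBPA and TBX3 0.61. HHEX had 0.47 with TBX3, 0.24 with HNF4A and -0.20 with CEBPA. CEBPB had coefficients between -0.47 (with TBX3) and -0.09 (with CEBPA).

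Among 4319 genes that reached 50 and varied over at least 4-fold, those most like each factor were named by the highest Pearson coefficient over the same 10 libraries. HNF4A was followed most closely by FOXP4 (r = 0.993), CD34 (0.988) and APOA2 (0.985), an apolipoprotein of high density lipoprotein. TBX3 was followed by PQLC2 (0.994) and also closely by FGFR3 (0.979), a receptor for fibroblast growth factors. CEBPA was followed by MEIS2 (0.989), DHRS3 (0.987) and S100A6 (0.987). The level of FGFR3, with 234 on day 3, 1384 on day 7 and 348 on day 21, followed that of TBX3 through the rise and the later decline.

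For HHEX the closest gene was CCL2 (0.979), a chemokine, with 1 on day 0, 101 on day 3, 11 on day 5 and 34 on day 7, so that it had both the early maximum and the smaller second one. The next was TAGLN2 (0.903). CEBPB had no gene above 0.9, and its closest were GABRE (0.846), MTRNR2L10 (0.843) and ADSSL1 (0.843). Genes with a coefficient above 0.9 numbered 423 for CEBPA, 299 for HNF4A, 78 for TBX3 and 3 for HHEX. By rank correlation only 3 of the 15 closest genes, 3 for each factor, were again among the closest.

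The factors were set beside other transcription factors of the liver, of which 19 of 24 listed genes could be used. Genes in this and the following lists are named as the largest rise and fall of a step or as defining genes, and the few others named were chosen after their values were seen. From day 0 to day 3, 3 of 19 rose and none fell, namely GATA6, GATA4 and FOXA2, which open the endoderm programme. Another 10 were under 50 in both libraries and could not be counted. GATA6 went from 2 to 642. The median log2 difference of the 19 was 0.41, against -0.04 for all genes. From day 3 to day 7 again 3 of 19 rose and none fell (among them CREB3L3, from 1 to 114, and FOXA1), with a median of 1.31 against -0.03. In this step 4 of the 19 were under 50 in both libraries.

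From day 7 to day 13 and from day 13 to day 21, 0 of these 19 genes passed 4-fold in either direction. Of all genes tested, 5.54% did in the first of these steps and 3.89% in the second. Of the 19, 2 in the first step and 4 in the second were under 50 in both libraries and could not be counted. The medians of the 19 were -0.12 and -0.35, where those of all genes were -0.04 and -0.10. In the OSM step 14 of the 19 were lower at day 21 than at day 13 and 5 were higher. Of the 5 factors, 4 were lower and 1 higher. Only HNF4A and CEBPA differed by more than the measure used for the order of the days, and HHEX, TBX3 and CEBPB did not. The share of all genes that were lower was not counted. With the libraries scaled to a common median ratio, the median of all genes in this step was -0.0097, and no factor changed sign. Lists of this kind were written with earlier results of these data known, and their counts describe them without a test. The shares of all genes given above for each step stand beside the counts of every list. Those shares are over genes tested, whereas the list counts are out of all usable genes, also those under 50 in both libraries.

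**Figure D2:**
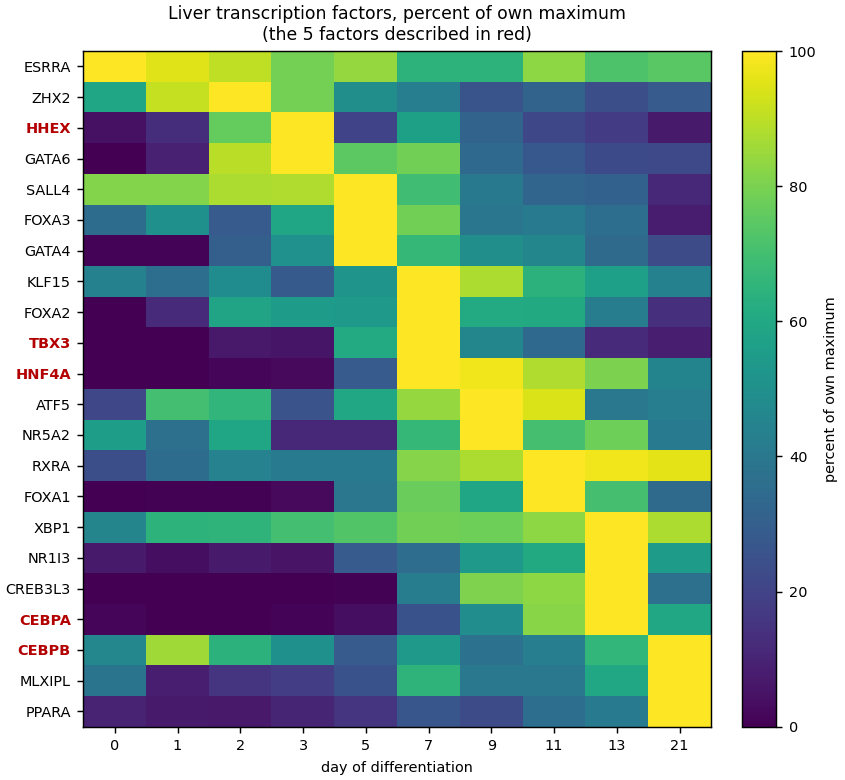
Value in each of the 10 libraries (columns, by day) as a percent of the gene's own maximum (colour scale from 0 to 100 percent) for the 5 factors (names in red) and other liver transcription factors, ordered by the day of the maximum. HHEX peaks with GATA6 at day 3, TBX3 and HNF4A among the day 7 genes with FOXA2, CEBPA at day 13 with CREB3L3, and CEBPB at day 21.

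Relatives of the factors could be read for 6 of 17 listed genes. CEBPD, a C/EBP protein that cytokines induce, had 8 on day 7, 52 on days 11 and 13 and 187 on day 21. It rose from day 7 to day 13 by 2.56, the only relative to do so, and its difference in the OSM step was 1.83, short of 4-fold. DDIT3, the stress-induced C/EBP protein that forms inactive dimers, went from 14 on day 0 to 116 on day 21, and CEBPG lay between 116 and 193 in all libraries. CEBPZ, which shares the name but not the leucine zipper, fell from 470 on day 0 to 50 on day 21. From day 0 to day 21, 3 of the 6 rose and 1 fell, where 11.9% of 9698 genes rose and 11.5% fell.

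Of co-regulators of these factors, 19 of 20 listed genes could be used. TRIB2, a pseudokinase that targets CEBPA protein for degradation, fell from 342 to 68 between day 0 and day 3, the only one of the 19 past 4-fold in that step. TRIB1, which acts on CEBPA protein in the same way, had 244 on day 3, 106 on day 7 and 30, 20 and 26 on days 11, 13 and 21. TRIB2 was lowest on day 11 (24) and TRIB3 on day 7 (12). A link between these genes and the CEBPA value was not tested. Under FGF4 and BMP2, ID2 and ID4, inhibitors of basic helix-loop-helix proteins, rose, ID2 from 76 to 1000. From day 7 to day 13, TRIB1, ID1, ID3 and ID4 fell and none rose, ID4 from 161 to 16. The medians of the 19 were 0.32 and -0.19 in these steps, against -0.03 and -0.04 for all genes.

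**Figure D3:**
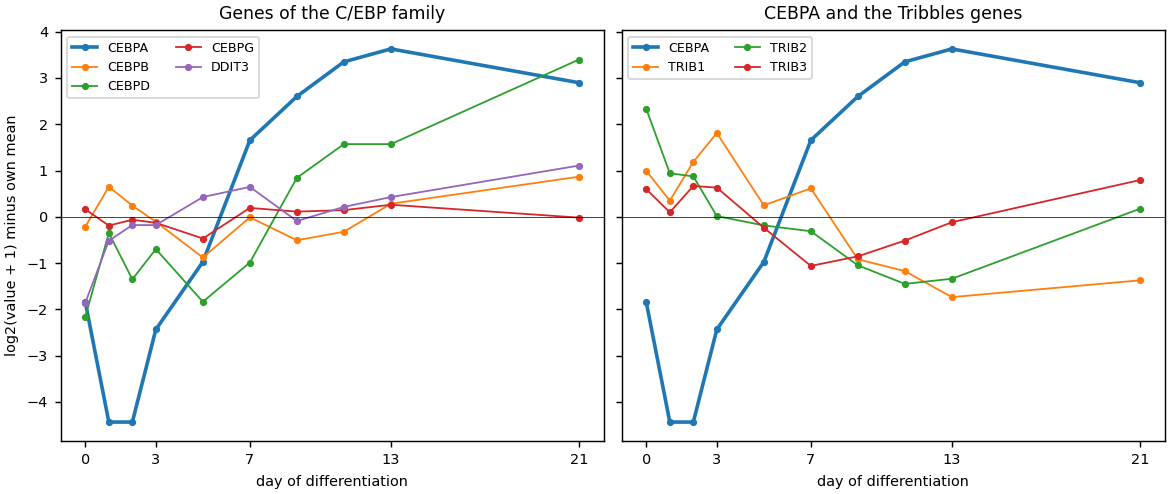
Log2(value + 1) minus the mean of the gene over the 10 libraries (vertical axis) against day (horizontal axis), for C/EBP family genes (left) and for CEBPA with the Tribbles genes (right), 1 library per point. CEBPA climbs from day 3 (3) to day 13 (266), CEBPD is highest at day 21 (187), and TRIB1 is highest at day 3 (244) and lowest at day 13 (20). Points of CEBPA on days 1 and 2 are listed zeros.

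Genes known as targets of HNF4A were read next, with 15 of 24 listed genes usable. From day 0 to day 3, 14 of the 15 were under 50 in both libraries and could not be counted, and the other did not pass 4-fold. Of the 15, 8 were higher on day 3, 4 lower and 3 equal, and APOA2 went from a listed 0 to 42. In the next step, to day 7, in which HNF4A rose, 10 of 15 rose and none fell, and the median log2 difference was 5.63 against -0.03 for all genes. A median over genes listed at 0 depends on the pseudocount. TTR, the thyroxine carrier, went from a listed 0 to 3430. The number of these genes at 50 or more was 1 on day 3, 5 on day 5, 11 on day 7, 13 on day 9, 12 on day 11, 15 on day 13 and 14 on day 21.

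From day 7 to day 13, with HNF4A at 1044 and 838, 6 of the 15 rose and none fell, with a median of 1.65. APOC3, an apolipoprotein that slows the clearance of triglyceride, went from 8 to 466. From day 13 to day 21, with HNF4A at 838 and 470, 4 rose (TF, APOC3, APOA4 and SERPINA1), 1 fell (LIPC, the hepatic lipase, from 388 to 49), and 7 were higher, 7 lower and 1 equal. TF, the iron carrier transferrin, went from 291 to 3865. TTR stood at 18734 in both libraries and could not go higher, and SERPINA1 reached that value at day 21. APOB also reached it, from 4856, a difference of 1.95 that fell short of 4-fold and could not be larger.

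Metabolic genes known as C/EBP targets could be read for 6 of 15 listed genes. From day 3 to day 7 and from day 7 to day 13, 1 of 6 rose each time, SERPINA1, which codes for alpha-1 antitrypsin and stands in both target lists. From day 13 to day 21, 4 of 6 rose and none fell, with a median of 2.44 against -0.10. ALB went from 168 to 4866, CPS1, the entry enzyme of the urea cycle, from 89 to 1217, UGT2B7 from 29 to 124 and SERPINA1 from 2640 to 18734. In the same step CEBPA went from 266 to 160 and CEBPB from 37 to 56, neither past 4-fold.

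**Figure D4:**
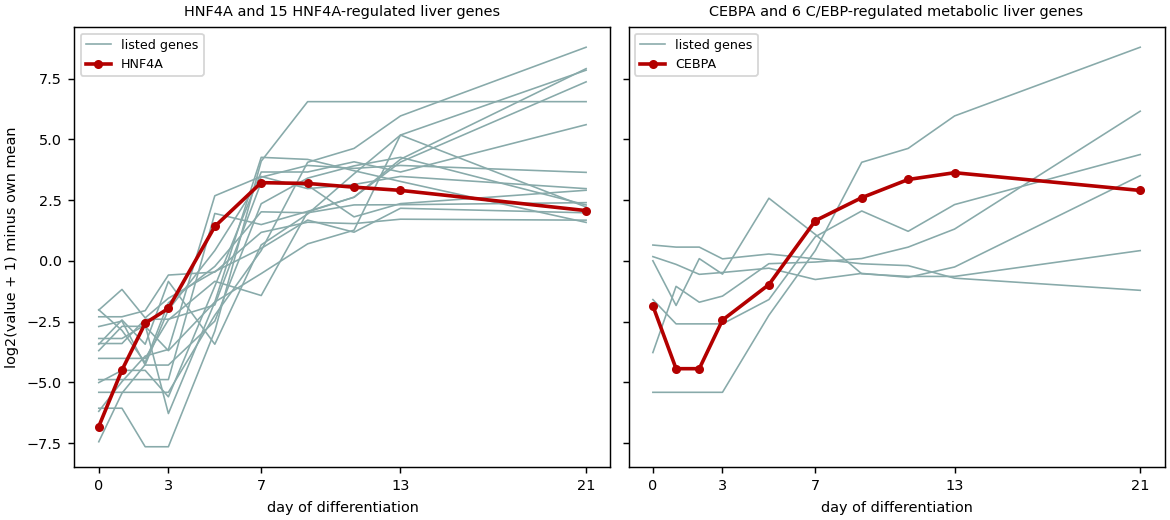
Log2(value + 1) minus the mean of the gene over the 10 libraries (vertical axis) against day (horizontal axis), with each listed gene as a thin line, beside HNF4A (left, thick line, 15 listed genes) and CEBPA (right, thick line, 6 listed genes). The HNF4A line differs little from day 7 to day 13 and lower at day 21 (470) while several listed genes go on up, and 4 of the 6 genes on the right rise from day 13 to day 21, when CEBPA goes from 266 to 160.

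Acute phase genes of the OSM and IL6 response were the list nearest to CEBPB, with 12 of 22 genes usable. In the OSM step 6 of 12 rose and none fell, with a median of 2.10 against -0.10 for all genes. Of all genes tested, 2.28% rose in this step. A2M, a protease inhibitor of plasma, went from 120 to 4858 and had the largest rise. OSMR, the receptor subunit for OSM, was among the genes that rose, with 32 on day 13 and 171 on day 21. CEBPB, a mediator of this response, had a difference of 0.58 over these days.

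Markers of other cell types moved over the same days, and their part in the values above was not tested. Of the endothelial markers, a cell type that also expresses HHEX, 11 of 14 could be used, and PECAM1 was not analysed here. Their summed value was 886 on day 3, where HHEX was highest, against a range of 509 (day 1) to 2664 (day 13). VWF, the von Willebrand factor, rose from 3 to 309 between days 0 and 3 and fell to 31 by day 7. It was the only 1 of the 11 past 4-fold in either step, where 3.94% of genes rose and 4.41% fell. From day 0 to day 3, 6 of the 11 were higher, 4 lower and 1 equal, and KDR went from 517 to 240. From day 7 to day 13, as HHEX went from 79 to 24, 4 of the 11 endothelial genes rose and all 11 were higher. Of all genes tested, 3.08% rose in this step. TEK, the angiopoietin receptor, went from 38 to 889.

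Macrophage and blood cell markers bear on CEBPA and CEBPB, which myeloid cells express. Only 3 of 14 could be used, so that most defining genes of these cells were not read. Their summed value lay between 13 and 74 up to day 13 and was 525 on day 21, where all 3 rose. PTPRC, the pan-leukocyte phosphatase, had 39, 12 and 18 on days 0, 1 and 2. It was listed at 0 from day 3 to day 13, through the days when CEBPA went from 3 to 266. Over part of these days, from day 7 to day 13, CD68 rose from 6 to 50, where 3.08% of genes rose. LYZ had 7 and 24 on these days. On day 21, the day of the highest CEBPB value, PTPRC was at 65. The part of such cells in the CEBPA values and in the CEBPB value of day 21 was not tested.

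Stromal and cardiac mesoderm markers, of which 9 of 14 could be used, bear on TBX3, a factor that mesenchyme also expresses. Their summed value was 1602 on day 3, 4785 on day 7, 20465 on day 13 and 21487 on day 21, a sum that genes with high values dominate. All 9 were higher on day 13 than on day 7, as TBX3 went from 768 to 91, and from day 13 to day 21 3 were higher, 4 lower and 2 equal. From day 3 to day 7, when TBX3 rose, 6 of the 9 rose and 1, TAGLN, fell. LUM, the matrix proteoglycan lumican, went from a listed 0 to 145. Of biliary and other foregut markers, 8 of 15 could be used, and 4 rose and 1 fell from day 3 to day 7. CDX2, a factor of the intestine, where HNF4A is also expressed, was listed at 0 through day 3 and had 116 on day 7, 197 on day 13 and 162 on day 21. SOX2 fell from 82 to a listed 0 between days 3 and 7. The part of such cells in the HNF4A and TBX3 values was not tested.

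Properties of the transcripts that bear on GC normalization were read from GENCODE 29. The mean GC content of coding transcripts was 66.2% for CEBPB and 65.9% for CEBPA, above 98.1% and 97.8% of the 11540 genes of the table with a value, whose median was 49.9%. HNF4A had 58.6%, TBX3 52.4% and HHEX 47.3%. CEBPA and CEBPB have 1 exon each. Antisense genes overlap the intervals of HNF4A (HNF4A-AS1 and AL117382.2), CEBPA (AC008738.3 and AC008738.5) and CEBPB (CEBPB-AS1) in that annotation. Because the library kit does not mark strand, reads from any exon bases shared with these partners cannot be told apart. Whether exons are shared was not examined.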

How the data were processed

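RNA was collected from differentiating H1 cells and sequenced, with 1 library per day. Per the methods and the submitters' processing notes, the authors aligned reads with Bowtie2 2.2.0 and RSEM 1.2.17 to an Ensembl transcriptome named for mm10, although gene names and identifiers are human (the notes also list hg19), and normalized for GC content with EDASeq. The authors deposited 1 table of whole-number scores for 12125 genes, with 0 columns left unmatched to a sample. The methods give depth only as an average over the libraries, and the scores keep no depth for any library, so no counting interval is given, and the number of libraries limits precision.

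Columns were matched to days by name. Changes were computed over the whole table on the log2(value + 1) scale, which understates those of low genes, and calls needed 4-fold and a larger value of at least 50. No test was possible. The factors and lists were chosen with earlier results of these data known. Named genes were the factors, the largest rise and fall of each list per step, defining markers and the 3 closest genes by correlation. Python 3.11.15, numpy 2.4.6, pandas 2.3.3 and matplotlib 3.10.9 were used, and code was tested on simulated data. Alternatives were pseudocounts of 0.1 and 5, scaling by median ratios, no minimum or 200, 2-fold, day 11 for day 13 and rank correlation. A few single genes and a motif are not reported here.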

Additional observations from a re-analysis of the deposited data

How the results depend on the processing

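No difference of a factor that passed 4-fold changed sign. That of CEBPB from day 7 to day 13, never called, was 0.29 and became -0.31 with day 11 as the end. Of 160 calls of the factors made again under the alternatives, 148 were as before, 7 were new and 5 were lost. A changed minimum or fold can alter a call but leaves the log2 difference itself as it was. From day 0 to day 3 the number of factors past 4-fold was 3 with no minimum value and 0 with a minimum of 200, in place of 1. From day 7 to day 13 it was 2 with median-of-ratios scaling, 3 at 2-fold and 0 with day 11 as the end, in place of 1. From day 13 to day 21 it was 1 with day 11 as the start, in place of 0, and from day 0 to day 21 it was 1 with a minimum of 200 and 4 at 2-fold, in place of 3. From day 3 to day 7 it was 2 with a minimum of 200, in place of 3, as CEBPA, at 67, was under that minimum. By rank correlation 3 of the 15 closest genes were named again; the cause was not tested. Over all genes, those past 4-fold in the 5 comparisons numbered 545, 913, 493, 342 and 2275. They numbered 237, 395, 189, 149 and 1084 with a minimum of 200, and 1801, 2362, 1588, 1551 and 4885 at 2-fold. With no minimum, the first 4 became 906, 1430, 818 and 670. The scaling moved the median of all genes by 0.18 from day 0 to day 21 and by 0.09 or less in each step, with 0 of 25 differences of the factors changing sign. No paired analysis was possible because each day has 1 library, and for the same reason no replicate could be left out. The depth behind each library is not given here, so a value listed at 0 sets no limit on expression.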
